A study of Mus musculus with 2 samples.

Results

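Goblet cells are the mucus-secreting cells of the intestinal lining, and the cells described here came from the jejunal crypts of mice that lack the microRNA miR-375. The members were all cells that the authors annotated as Goblet in their table of cells, with the cells annotated as Goblet progenitor kept apart. There were 415 such cells among 3207 annotated epithelial cells and 3275 kept cells in all. Of these, 277 came from replicate 1 and 138 from replicate 2.

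The series holds 1 group. It consists of 2 male mice, 12 months old, with a whole-body knockout of miR-375 (375KO), and replicate 1 and replicate 2 stand for the single library made from each. The knockout was made with CRISPR/Cas9 in embryos of FVB and B62J parents, and mice null for miR-375 were then crossed back to B6 albino mice. The labels give the strain as C57BL6/2J. Both mice were null for miR-375, and libraries of wild-type mice were not analysed here. Nothing below therefore separates goblet cells with miR-375 from those without it. The study made these mice to ask whether genes that its human organoid model had linked to miR-375 respond to its absence in the adult intestine.

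A goblet cell makes mucins, very large proteins that are folded and linked into chains in the endoplasmic reticulum (ER), coated with O-linked sugars in the Golgi apparatus, packed into granules and released onto the epithelial surface. Its fate is set in the crypt. A progenitor that escapes Notch signalling switches on Atoh1, and Spdef then drives the maturation of goblet and Paneth cells. Paneth cells, which share this origin, fill their granules with antimicrobial peptides. The gene groups below follow that order, from the mucus itself through the factors that set the fate to the machinery of folding, transport, glycosylation and release.

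The RNA removed in these mice is cut from a hairpin of 64 bases, shown because it defines the genotype of every cell in the series. Mature microRNAs carry no poly(A) tail and are not captured by this chemistry, so the deletion was not checked in these libraries. The hairpin lies on the minus strand of chromosome 1 (GRCm38.p6, the mm10 assembly), at chr1:74900658-74900721. Its sequence from RefSeq, 5′ to 3′, is as follows.
Mir375 hairpin: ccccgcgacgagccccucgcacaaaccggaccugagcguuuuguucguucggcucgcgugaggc

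The 10x Genomics chemistry used tags each captured RNA near its 3′ end with a unique molecular identifier (UMI), which is what was counted. The counts were therefore not divided by gene length, and a level is given in counts per 1000000 UMIs (CPM), from the UMIs summed over all cells of a type. The libraries held 64305085 and 23675011 UMIs and shared 0 cell barcodes. The goblet cells held 3782368 UMIs in replicate 1 and 2236857 in replicate 2, with medians of 13649 and 15708.5 UMIs and of 2974 and 2988.5 genes per cell. The shallowest goblet cell held 4823 UMIs in replicate 1 and 9310.0 in replicate 2, so the cells admitted reached lower depths in replicate 1. Their median mitochondrial shares of 5.78% and 3.05% were below those of enterocytes (13.2% and 7.59%) and above those of Paneth cells (0.0907% and 0.185%). The 10 genes with the most UMIs took 25.7% and 24.3% of all goblet UMIs. Goblet cells made up 13.6% (95% exact binomial interval 12.2 to 15.2) of 2032 epithelial cells in replicate 1. In replicate 2 they made up 11.7% (9.96 to 13.7) of 1175. These intervals cover counting error only and not the variation between mice. Among cells with at least 2500 genes and at most 10% mitochondrial reads the shares were 27.6% (24.6 to 30.7) and 12.5% (10.5 to 14.8). The share of replicate 1 thus depended on which cells were admitted.

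All 6 fixed goblet markers were highest in the goblet cells among the 9 epithelial types in both libraries. They are Muc2, the main gel-forming mucin of the intestine, Agr2, an ER disulfide isomerase needed for mucin production, Spdef, a maturation factor, Fcgbp, a large mucus protein, Tff3, a trefoil peptide secreted with the mucus, and Clca1, a mucus metalloprotease. Muc2 (ENSMUSG00000025515.15, chr7:141690340-141754693) was detected in 99.6% and 99.3% of goblet cells thinned to 5000 UMIs. Enterocytes thinned to the same depth, which should lack it, held Muc2 in 0.97% and 3.40% of cells. The authors named the class from marker genes in these same cells, so the levels of the markers, and every comparison with another type below, are descriptions and were not tested.

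Markers of most other types were close to 0 in the goblet sums. The 6 enteroendocrine (EEC) markers summed to 0.793 and 6.26 CPM in goblet cells, the 6 tuft markers to 4.49 and 1.79, and the 8 markers of intraepithelial lymphocytes to 7.40 and 8.49. The 6 stem markers summed to 32.3 and 37.1 CPM and the 6 markers of cycling transit-amplifying (TA) cells to 49.4 and 72.9, against highest sums of 699.6 and 340.3 and of 1104 and 767 CPM in another type. In the types named for them the EEC markers reached 29795 and 34432 CPM and the tuft markers 5378 and 5962. Of the EEC markers 5 had 0 UMIs in the goblet cells of replicate 1, among them Chga, Chgb and Cck, and 2 had 0 in replicate 2. The endocrine factor Neurod1 had 0 in both. The 4 markers of secretory progenitors, which include Atoh1 and Dll1, summed to 361 and 299 CPM. Enterocyte markers summed to 2522 and 2384 CPM, nearly all of it Fabp2, a fatty acid binding protein, at 2443 and 2356 CPM. Fabp1, its close relative, stood at 11.6 and 13.0 CPM in goblet cells and at 19464 and 8640 in enterocytes.

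Paneth markers were the exception. The 6 of them summed to 5409 and 5484 CPM in goblet cells, against 520975 and 414367 CPM in Paneth cells. Defa24, an alpha-defensin, supplied most of this with 3439.9 and 3684 CPM, and Lyz1, lysozyme, stood at 702 and 978 and Itln1, intelectin, at 1196 and 504. Mptx2, a pentraxin of Paneth cells, stood at 7.14 CPM in replicate 1 and had 0 UMIs in replicate 2. A count of 0 allows up to 0.793 CPM in the goblet sum of replicate 1 and 1.34 CPM in that of replicate 2 (3 counts of the total, counting error only). The alpha-defensins are near-identical genes, so the split of reads among them is uncertain. Goblet progenitors held Defa24 at 7.82 and 1569 CPM. The 6 types other than these and Paneth cells held it at 2.13 to 619 CPM in replicate 1 and at 0 in replicate 2.

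The Paneth genes did not keep the proportions they had in Paneth cells. In replicate 2 Defa21 and Defa22 reached 53875 and 57320.3 CPM in Paneth cells and had 0 UMIs in goblet cells, while Defa24 reached 296842 CPM there and 3684 here. In replicate 1 Mptx2 fell from 10675 CPM in Paneth cells to 7.14 in goblet cells, and Itln1 from 49601 to 1196. How these UMIs came to lie in goblet cells was not tested.

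Against the unweighted mean of the other 8 epithelial types, 293 of 7499 genes tested (3.91%) were at least 2-fold higher in goblet cells in both libraries, and 728 (9.71%) were at least 2-fold lower. Genes tested had a mean of at least 10 CPM over the 9 types, and folds were taken after adding 5 CPM to each level, which understates the change of low genes. The median gene stood at -0.33 on the log2 scale. With TMM factors that median was -0.05 and the counts were 345 higher and 458 lower, and with DESeq2 size factors it was -0.09 with 317 and 480. The higher calls were therefore 28.7% of all calls as scaled here, 43.0% with TMM and 39.8% with DESeq2. A log2 value below is best read against -0.33. Of the 7499 genes, 388 (5.17%) were higher in goblet cells than in each of the other 8 types in both libraries.

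Of the 20 mucus genes tested, 12 were higher than the mean of the other types in both libraries, 6 were lower and 2 were neither, and the same 12 had their highest level in goblet cells. The median log2 of the list was 2.81, and with TMM or DESeq2 factors 11 of its genes were higher. Zg16, a lectin-like protein of the inner mucus, held the most UMIs of any gene, 315729 in replicate 1 and 128509 in replicate 2. This was 83474 and 57451 CPM, with 16372 and 10926 in goblet progenitors, the next type, and a log2 of 5.20 and 5.34 against the mean of the other types. Clca1 stood at 2428 and 1608 CPM (log2 of 4.42 and 4.68). Muc2 stood at 9526 and 4044 CPM, 2.35-fold higher in replicate 1, and both values lay above the 2893 and 1694 CPM of goblet progenitors. Agr2 was closer between the mice at 31527 and 26859.6 CPM (log2 of 3.85 and 3.94).

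Fcgbp stood at 14978 and 7701 CPM and Tff3 at 42544 and 67227 CPM, so that Fcgbp was higher in replicate 1 and Tff3 in replicate 2. Spink4, a protease inhibitor of goblet granules, stood at 26703 and 34299 CPM. It differed from the genes above in its next type, which was Paneth cells in replicate 1 (7726 CPM) and goblet progenitors in replicate 2 (15408 CPM). Klk1, a kallikrein protease, stood at 1058 and 768 CPM and Sytl2, a granule-tethering protein, at 199.6 and 106. Ccl6 and Ccl9, related chemokines, also had their highest level here, and Ccl6 at 1211 and 1676 CPM was close to its level in Paneth cells (1189 and 1030.1). The call of Ccl6 depended on the scaling. Its log2 was 0.41 and 0.84 with TMM and 0.27 and 0.66 with DESeq2, below 2-fold. The twelfth gene was Lypd8, which keeps bacteria away from the epithelium. As scaled here it had the smallest log2 of the 12, with 3755 and 2842 CPM in goblet cells and 2870 and 1751 in enterocytes. Ccl9 and Lypd8 were named after their values were seen.

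**Figure D1:**
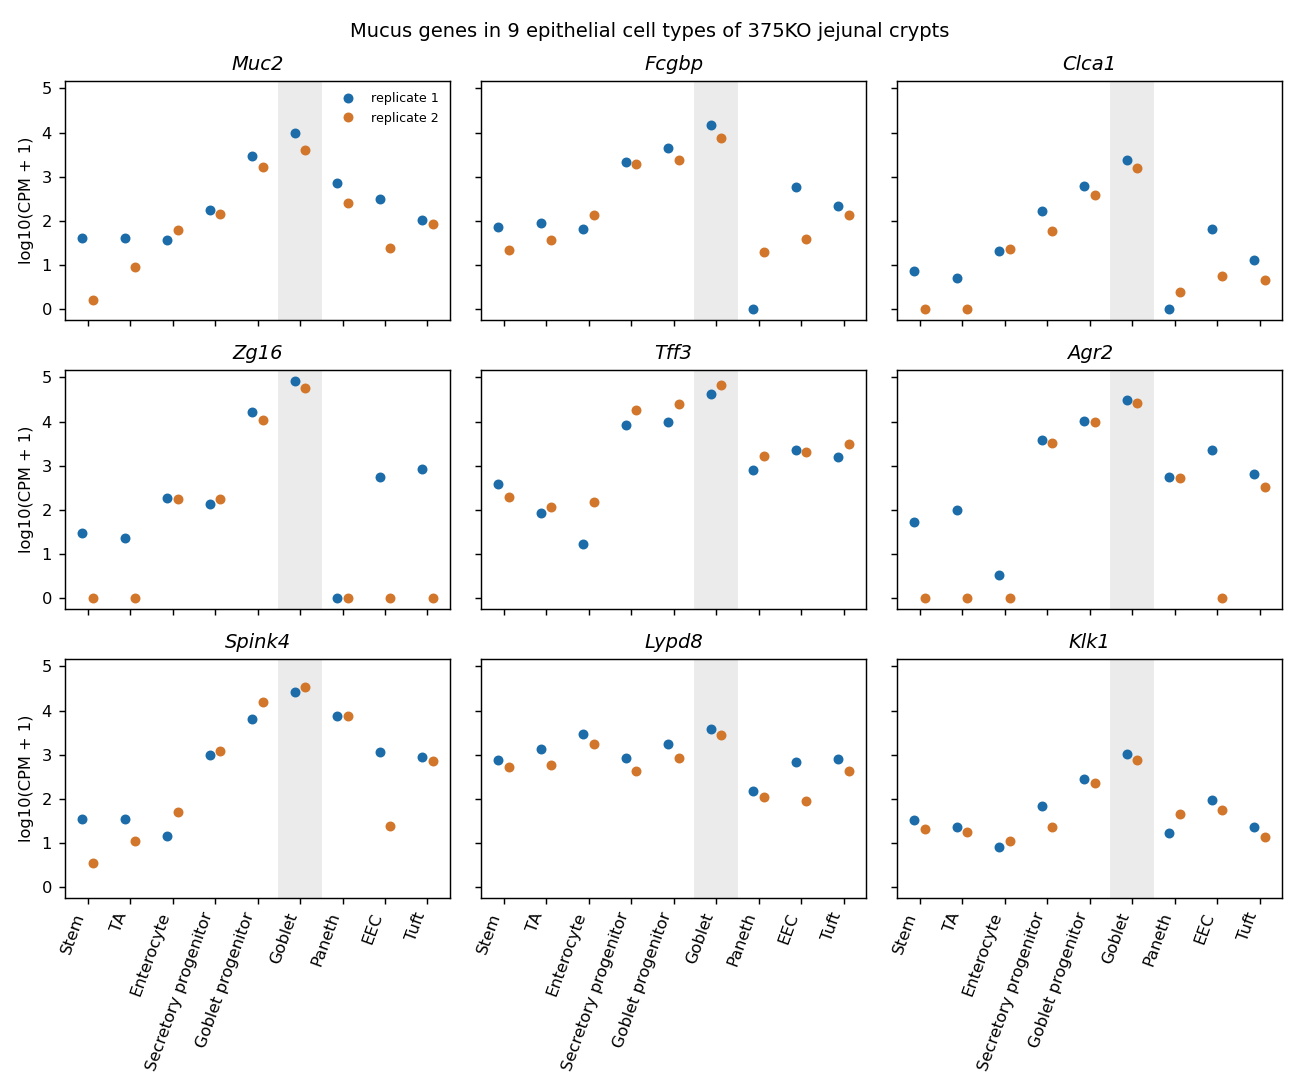
Levels of 9 mucus genes in the 9 annotated epithelial types, as log10 of CPM + 1, with a point for each library and goblet cells on the grey band. In every panel the goblet points lie highest, goblet progenitors come next for most genes, and several types of replicate 2 lie at 0 for Zg16 and Agr2.

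The 6 lower members of the mucus list had their highest level in other cells. Ang4, an antimicrobial ribonuclease, stood at 36.0 and 79.1 CPM in goblet cells and at 10632 and 10488 CPM in Paneth cells. The direction rested on the Paneth sum, since without Paneth cells among the other types the mean log2 turned from -4.50 to 2.36 for Ang4 and from -2.46 to 3.88 for Itln1, and 3 mucus genes were lower and 14 of 19 higher. Itln1 and Pnliprp2 likewise had their highest level in Paneth cells, Dmbt1 in TA cells, and the membrane mucin Muc3 in enterocytes at 229 and 287 CPM against 15.9 and 14.8 here. The membrane mucin Muc4 reached 91.8 and 23.2 CPM in EEC against 5.02 and 1.34. Muc13, another membrane mucin, was neither higher nor lower at 657 and 533 CPM, and Reg4 at 284 and 460.5 CPM was exceeded by EEC at 3372 and 6685. Retnlb, a goblet protein induced by worm infection, had 0 UMIs in the goblet cells of both libraries, so it was not detectable at this depth. Pnliprp2, Muc3, Muc4, Muc13, Reg4 and Retnlb were named after their values were seen.

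Of the 22 transcription factors tested, 7 were higher in goblet cells in both libraries, 3 were lower and 12 were neither. The 7 were the 7 with their highest level here. Atoh1, which commits a cell to the secretory lineage, stood at 212 and 203 CPM and 90.3 and 75.0 in goblet progenitors. Spdef stood at 211 and 189.6 CPM (log2 of 2.54 and 2.48), and the next type was secretory progenitors at 117 and 120.5 CPM. Foxa3 stood at 259 and 233 CPM and Klf4, a factor of terminal goblet differentiation, at 522 and 382. A UMI of Atoh1 was seen in 61.2% and 58.0% of goblet cells at 5000 UMIs and in 0 of 930 and 0 of 382 enterocytes, and a UMI of Spdef in 60.9% and 55.8% against 0.323% and 0%. The goblet levels of these 4 factors differed between the mice by at most 1.36-fold.

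The other 3 were factors of the secretory stress response. Creb3l4 stood at 169.7 and 134 CPM (log2 of 2.95 and 2.77), Creb3l1 at 226 and 265 CPM and Xbp1, the factor that the ER sensor IRE1 activates, at 315 and 315 CPM against 123 and 141 in the mean of the other types. Gfi1, a repressor that keeps secretory cells from the endocrine path, had a mean over the types below the limit for testing and stood at 29.6 and 24.1 CPM, above every other type. Lower were Neurog3, the factor of the endocrine path, at 0.793 and 0 CPM against 330 and 558 in secretory progenitors, Sox4 at 16.1 and 25.9 CPM against 1055 and 1236 there, and the glucocorticoid receptor Nr3c1 at 10.0 and 21.9. Over the list the median log2 was 0.07. Foxa1, Cdx1, Cdx2, Hnf4a and Elf3, factors that many intestinal cells share, were among the 12 that were neither. Foxa1 lay near the line, with log2 of 1.13 and 1.01 with TMM and 1.07 and 0.91 with DESeq2.

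Of the 32 genes tested for protein folding in the ER and the unfolded protein response, 18 were higher in goblet cells in both libraries and 0 were lower, with 20 highest in goblet cells and a median log2 of 1.13. The largest values belonged to Pdia5, a disulfide isomerase, at 203 and 212 CPM (log2 of 2.90 and 2.98) and to Ern2, the IRE1 isoform of mucous epithelia, at 187 and 127 CPM (log2 of 2.65 and 2.39). Its widely expressed relative Ern1 was at 11.6 and 8.05 CPM in goblet cells and at 9.33 and 8.21 in the mean of the others. Txndc5 and Pdia6, also disulfide isomerases, stood at 1004 and 930.3 CPM and at 872 and 813 CPM, and Pdia3 at 913 and 687. Manf, a secreted stress protein of the ER, stood at 987 and 941 CPM, Sdf2l1 at 226 and 369 and Creld2 at 114 and 217. The chaperones Hspa5 (BiP), Calr and Dnajc3 were higher too, with log2 of 1.53 and 1.50, 1.28 and 1.35 and 1.37 and 1.47, whereas the lectin chaperone Canx had log2 of 0.04 and 0.11.

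Among genes of the stress branches themselves, Ddit3, which marks sustained ER stress, stood at 24.9 and 19.7 CPM with log2 of 0.58 and 0.12, and Atf4 at 249 and 173 CPM with 1.08 and 0.67. Atf6 had log2 of -0.07 and -0.11, and the oxidases Ero1l and Ero1lb had mean log2 of 0.06 and -0.43. These 5 genes were neither higher nor lower. Ero1l and Ero1lb, with Ern1, Hspa5, Calr, Dnajc3 and Canx, were named after their values were seen.

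Promoters of the whole folding list were searched, including genes that were neither higher nor lower in goblet cells. The list holds genes of the unfolded protein response by design, so its share says nothing about goblet levels. CCACG is the core of the ER stress element and TGACGTGG is known as the unfolded protein response element, both bound by XBP1 and ATF6. On either strand, from 250 bases before to 50 after the annotated start, CCACG was found in 26 of 31 promoters of the list (83.9%), which belong to 28 of its 35 genes. The share was 32.8% of all 32851 promoters, 48.6% of the 7464 promoters of the genes tested and 53.6% of the 278 promoters of the genes higher in goblet cells. It was 71.1% of the 38 promoters of the transport list, 47.1% of the 51 of the glycosylation list and 19.0% of the 21 of the mucus list. TGACGTGG was found in 6.45% of the folding promoters, 13.2% of the transport promoters, 0% of the glycosylation and mucus promoters, and 0.676% of all promoters. Each match to TGACGTGG is also a match to CCACG on the opposite strand. A match of this kind describes the letters only.

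Shown are the 250 bases before the start of 4 folding genes named above and, for contrast, of Muc2, which held neither motif. They come from RefSeq on GRCm38.p6, read 5′ to 3′ on the strand of the gene, and capitals mark CCACG, its complement CGTGG, or TGACGTGG. The Txndc5 stretch is chr13:38527915-38528164 (minus), that of Pdia6 is chr12:17266339-17266588 (plus), that of Sdf2l1 chr16:17132384-17132633 (minus), that of Creld2 chr15:88819396-88819645 (plus) and that of Muc2 chr7:141690090-141690339 (plus).
Txndc5: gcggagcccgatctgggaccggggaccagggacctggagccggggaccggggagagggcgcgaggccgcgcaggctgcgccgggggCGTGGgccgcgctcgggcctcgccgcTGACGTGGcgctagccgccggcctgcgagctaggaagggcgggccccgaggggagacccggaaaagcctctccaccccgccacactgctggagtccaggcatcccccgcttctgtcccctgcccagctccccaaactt
Pdia6: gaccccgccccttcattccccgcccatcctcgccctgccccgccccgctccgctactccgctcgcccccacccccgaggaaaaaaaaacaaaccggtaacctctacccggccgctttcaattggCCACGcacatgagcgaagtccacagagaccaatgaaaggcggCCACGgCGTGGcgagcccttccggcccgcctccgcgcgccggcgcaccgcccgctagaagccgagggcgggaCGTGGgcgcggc
Sdf2l1: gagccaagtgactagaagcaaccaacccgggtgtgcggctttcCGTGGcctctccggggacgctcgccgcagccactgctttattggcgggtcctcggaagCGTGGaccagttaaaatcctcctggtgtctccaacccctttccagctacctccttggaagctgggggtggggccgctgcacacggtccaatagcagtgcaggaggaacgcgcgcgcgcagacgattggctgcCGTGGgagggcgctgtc
Creld2: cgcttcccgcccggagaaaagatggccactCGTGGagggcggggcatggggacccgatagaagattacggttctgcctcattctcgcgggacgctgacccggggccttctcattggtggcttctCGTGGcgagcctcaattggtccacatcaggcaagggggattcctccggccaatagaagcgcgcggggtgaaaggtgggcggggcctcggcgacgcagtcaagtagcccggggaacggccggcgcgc
Muc2: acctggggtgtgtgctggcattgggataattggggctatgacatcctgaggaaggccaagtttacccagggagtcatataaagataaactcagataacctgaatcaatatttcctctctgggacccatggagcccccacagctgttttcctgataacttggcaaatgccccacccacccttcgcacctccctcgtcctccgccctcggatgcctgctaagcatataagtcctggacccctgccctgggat
Txndc5 has 3 annotated starts, and the stretch shown was picked as the one ranked first by its matches. Another of its starts held neither motif. The stretch shown held TGACGTGG at 138 bases before the start. Pdia6 held 4 matches to CCACG, Sdf2l1 3 and Creld2 2. Among other folding genes named above, Dnajc3 held 4, Canx 2, Hspa5, Calr and Pdia5 1 each and Pdia3 0.

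Of the 42 genes tested for translocation into the ER and ER-Golgi transport, 19 were higher in goblet cells in both libraries, 0 were lower and 27 were highest in goblet cells, with a median log2 of 0.97. Kdelr3, a receptor that returns ER proteins from the Golgi, stood at 128 and 96.1 CPM against 10.4 and 6.57 in the mean of the other types (log2 of 3.12 and 3.13). Its relative Kdelr2 stood at 708 and 589 CPM with log2 of 1.71 and 1.67. Tmed3, a cargo receptor, stood at 412 and 342 CPM, the small GTPase Arf4 at 525 and 321 and the signal peptidase subunit Sec11c at 850.0 and 717. Ssr2, part of the translocon, stood at 752 and 826 CPM and Lman1, a lectin that carries glycoproteins, at 247 and 186. Sec24d, a coat protein of vesicles leaving the ER, was higher at 67.9 and 42.0 CPM, although enterocytes held 73.3 CPM in replicate 1. Other coat genes of the list varied, and Sec23a and Sar1b had log2 of 0.02 and 0.18 and of -0.26 and -0.41. With TMM factors, Cope had log2 of 1.29 and 1.35 and Copb1 of 1.18 and 1.22, but Sec24c of 0.14 and 0.21. Sec23a, Sar1b, Cope, Copb1 and Sec24c were named after their values were seen.

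Of the 30 genes tested for O-glycosylation and mucin sulfation, 16 were higher in both libraries, 0 were lower and 19 were highest in goblet cells, with a median log2 of 1.20. The enzymes that start O-glycans were represented by Galnt12 at 339 and 294 CPM (log2 of 2.97 and 2.60), Galnt7 at 437 and 236 and Galnt3 at 129 and 73.3. C1galt1, which builds the core 1 sugar, stood at 213 and 97.0 CPM and its chaperone C1galt1c1 at 273 and 176, both higher in replicate 1. Gcnt3, which branches the chain, stood at 286 and 227 CPM. Chst4, a sulfotransferase, stood at 123 and 104 CPM against 9.12 and 7.40 in the mean of the other types, the largest log2 of the list (3.19 and 3.14). Qsox1, a Golgi enzyme that forms disulfide bonds, stood at 335 and 261 CPM. B3gnt6, which builds the core 3 sugar, and the sialyltransferase St6galnac1 had 0 UMIs in the goblet cells of both libraries. St3gal4, another sialyltransferase, at 74.8 and 80.0 CPM, had its highest level in enterocytes. The last 3 genes were named after their values were seen.

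Of the 19 genes tested for granule traffic and release, 9 were higher in both libraries, 1 was lower and 8 were highest in goblet cells, with a median log2 of 0.85. Tpsg1, a membrane-bound tryptase, stood at 402 and 528 CPM (log2 of 3.71 and 3.96) and Bace2, an aspartic protease, at 238 and 202 CPM (log2 of 3.59 and 3.70). Capn9, a calpain of the digestive tract, stood at 201 and 115 CPM and Scin, which severs actin filaments, at 312 and 269.6. Rab27b, a GTPase of granule docking, stood at 247 and 143 CPM, with tuft cells next at 140 and 83.9. Rab27a and the calcium sensor Syt7 were also higher, at 46.3 and 37.1 CPM and 38.1 and 36.2 CPM. Rab3d, which coats secretory granules, was higher at 152 and 161 CPM but not highest, since EEC held 227 CPM in replicate 2. Rab11a, of recycling endosomes, had log2 of 0.52 and 0.33. The lower gene was Cplx2, a regulator of endocrine and neuronal release, at 0.264 and 0 CPM against 140 and 195 in EEC. Rab27a, Syt7 and Cplx2 were named after their values were seen.

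**Figure D2:**
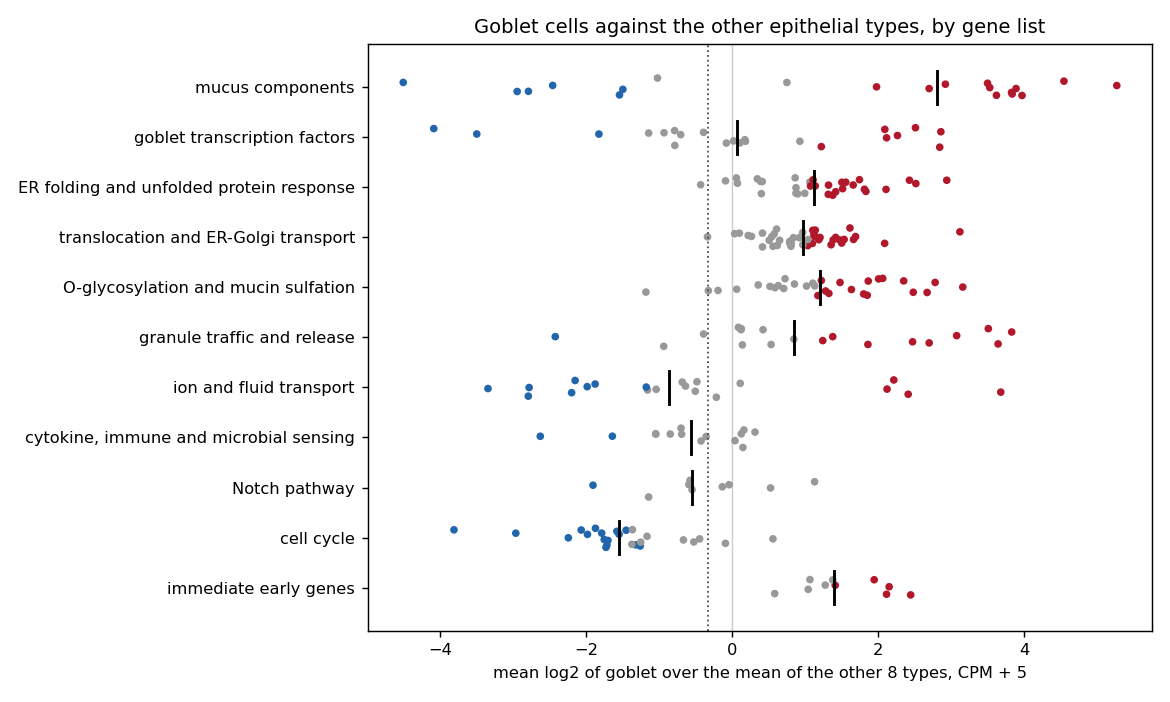
Mean log2 of goblet cells over the mean of the other 8 types, with a point for each gene tested in 11 lists. Red points were at least 2-fold higher in both libraries, blue points at least 2-fold lower and grey points neither, the black bars are list medians, and the dotted line is the median of all genes tested at -0.33. The folding, transport and glycosylation lists hold no blue point, and the cell cycle list no red one.

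The ion and fluid transport list went the other way on balance, with 4 of 20 genes higher, 8 lower and a median log2 of -0.86. Guca2a, the precursor of guanylin, which tells enterocytes to secrete chloride and water, was the exception at 5537 and 9917 CPM (log2 of 3.60 and 3.77). Its relative Guca2b, uroguanylin, was an enterocyte gene at 2329 and 1912 CPM there and 437 and 625 in goblet cells, and their receptor Gucy2c had log2 of -0.35 and -0.66. Also higher were Scnn1a, a sodium channel subunit, at 54.7 and 48.7 CPM, Car8 at 186 and 131 and Ano7 at 150.2 and 82.3. Lower were the sodium-glucose transporter Slc5a1 at 6.35 and 7.15 CPM against 776 and 455 in enterocytes, Ano6 at 1.59 and 8.49 CPM, the potassium channel subunit Kcne3 at 32.5 and 51.9, and the chloride channel Cftr at 4.49 and 12.1 against a mean of 50.1 and 41.0. Guca2b and Cftr were named after their values were seen.

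In the list of cytokine, immune and microbial sensing genes 0 of 14 were higher and 2 were lower, against 3.91% and 9.71% of all genes tested. Nlrp6, an inflammasome sensor that has been linked to goblet secretion, stood at 4.76 and 17.0 CPM, and enterocytes held 259 and 221. Reg3b, an antibacterial lectin, stood at 499.7 and 142 CPM against 13360.5 and 2524 in enterocytes, and its near copy Reg3g at 554 and 203. Receptors for type 2 cytokines were present at low level, with Il13ra1 at 44.7 and 45.2 CPM, where tuft cells held 443 and 407, and Il4ra at 14.5 and 14.3. Il22ra1 and Il17ra stood at 0.793 and 0 CPM and 5.02 and 5.36 CPM. The muscarinic receptor Chrm1, below the level tested, was at 13.7 and 13.4 CPM against 2.14 and 2.66 in the mean of the other types, and the prostaglandin receptor Ptger4 at 32.5 and 24.1 CPM against 8.95 and 6.01. Both were highest in goblet cells. Pigr, which carries IgA into the lumen, had log2 of -0.33 and -0.37, Ifngr1 0.25 and 0.38, Casp1 -0.06 and 0.39 and Pycard -0.97 and -0.41.

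Of 9 Notch genes tested 0 were higher (1, with TMM or with DESeq2) and 1 was lower, and the median log2 was -0.55. Over all genes tested 3.91% were higher and 9.71% lower, with a median of -0.33, so these counts lie near those shares. The ligand Dll1, which secretory cells present to their neighbours, stood at 117 and 77.3 CPM in goblet cells and was highest in secretory progenitors at 180 and 196. Notch1, the lower gene, had 2 UMIs in each goblet sum, or 0.529 and 0.894 CPM. Of 12 genes described for goblet subsets of the colon, 8 were tested, 4 were higher (Zg16, Clca1, Fcgbp and Atoh1), 2 were lower (Dmbt1 and Gsdmc4) and the others were neither. Ido1, which breaks down tryptophan, was below the level tested. It had 83 UMIs in the goblet cells of replicate 1 and 7 in those of replicate 2, and 0 in each of the other 8 types of both libraries. Gsdmc4 and Ido1 were named after their values were seen.

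Genes outside the lists that stood out most in the lower of the 2 libraries included S100a6, a calcium-binding protein, at 976 and 639.7 CPM (log2 of 4.21 and 4.11) and Rep15, a partner of the GTPase RAB15, at 678 and 460.0 CPM (log2 of 3.91 and 4.13). Bcas1 stood at 235 and 156 CPM, and Pla2g10, a secreted phospholipase, at 126 and 129.6. Fer1l6, of the ferlin family of membrane-fusion proteins, stood at 125 and 63.0 CPM, and Fkbp11, a prolyl isomerase of the ER, at 285 and 237. Lrrc26, a subunit of the BK potassium channel, stood at 395 and 245 CPM, and another potassium channel gene, Kcnk6, at 84.9 and 72.9. These genes had goblet progenitors as the next type in both libraries.

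Ramp1, a subunit of the receptor for the nerve peptide CGRP, showed another pattern. It stood at 326 and 144 CPM in goblet cells, at 170 and 104 in Paneth cells and at 60.7 and 48.6 in goblet progenitors, and it was at or below 12.1 CPM in each of the other types. Its log2 was 1.27 and 0.56 with TMM and 1.13 and 0.39 with DESeq2. It was thus below 2-fold in replicate 2 under both. Hgfac, an activator of a growth factor, stood at 138 and 126 CPM, S100a14 at 127 and 88.5, the transporter Slc12a8 at 363 and 259, the lipase Liph at 153 and 114, Ttc39a at 167 and 97.9 and Smim14 at 648 and 631. Lgals2 and Lgals4, galectins made by many intestinal cells, were among the 10 genes with the most goblet UMIs, at 11089 and 15820.0 CPM and 8969 and 8106 CPM, with log2 of only 1.18 and 1.38 and 1.38 and 1.46. The mitochondrial transcripts mt-Atp6, mt-Co3 and mt-Co1 completed those 10 beside the mucus genes, and each lay below the mean of the other types, with mean log2 of -0.52, -0.54 and -0.31.

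The genes furthest below the other types were products of other secretory cells and of enterocytes. Gip and Gcg, hormones of EEC, had 0 UMIs in the goblet cells of both libraries, where 3 counts would be 0.793 and 1.34 CPM, and Gip reached 41045 and 82590 CPM in EEC. Ghrl, ghrelin, stood at 0.529 and 0 CPM, Rbp2, the enterocyte retinol carrier, at 9.78 and 0 and the tuft gene Lrmp at 2.64 and 0. The Paneth defensins Defa20, Defa21, Defa22 and Defa26 stood between 6.61 and 41.5 CPM in replicate 1 and at 0, or 4.02 for Defa26, in replicate 2. Zeros among abundant genes were uneven between the libraries. Of the 269 genes at 500 CPM or more over all epithelial UMIs of replicate 1, 2 had 0 goblet UMIs (Fabp6 and Gip), and of 241 such genes in replicate 2, 12 had 0, among them Apoa1, Rbp2, Gip, Mptx2, Defa20, Defa21 and Defa22. The study's methods name SoupX, which removes counts judged to come from free RNA, without saying which file it was applied to. Its part in these zeros was not tested, and a 0 here is read as a listed value only.

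Against the goblet progenitors (162 and 84 cells), 122 of 7499 genes were at least 2-fold higher in goblet cells in both libraries (1.63%) and 558 were at least 2-fold lower (7.44%). The balance of the calls depended on the scaling. The median gene lay at -0.36 on the log2 scale, so 17.9% of the calls were higher, whereas TMM factors moved the median to 0.02 with 325 higher and 232 lower (58.4%), and DESeq2 size factors to 0.05 with 345 and 220 (61.1%). Progenitors held more RNA per cell, with medians of 28554.5 and 19683 UMIs. Their median doublet scores were 0.201 and 0.0905, against 0.0215 and 0.0129 in goblet cells, and 115 and 40 of them had a score of 0.1 or more. Without the cells of both classes at or above that score, which left 248 and 113 goblet cells and 47 and 44 progenitors, 87 genes were higher and 562 lower.

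The higher genes included 14 of 20 mucus genes, 8 of 19 granule genes, 5 of 22 transcription factors and all 6 goblet markers. Without the cells of raised doublet score these counts were 12 of 20, 5 of 20, 0 of 22 and 4 of 6. The markers no longer higher were Spdef, with log2 of 0.57 and 0.88, and Agr2, with 0.92 and 1.65, and Atoh1 had 0.09 and 1.29. Zg16 was 5.10 and 5.26 times and Clca1 4.03 and 4.24 times the progenitor level after the 5 CPM were added. Muc2, with log2 of 1.72 and 1.25, and Agr2, with 1.63 and 1.44, were less far apart. Ccl6 stood at 1211 and 1676 CPM against 230.2 and 324, and Tm4sf4, a tetraspan membrane protein, at 333 and 171 against 65.1 and 34.2, whereas EEC held 1049 and 1133. Rep15, S100a6 and Lrrc26 were higher here as well, with log2 of at least 1.80, and Gde1, a lipid phosphodiesterase, stood at 136 and 84.5 CPM against 33.1 and 19.2. Lyz1 and Clps, genes with their highest level in Paneth cells, stood at 702 and 978 CPM against 91.2 and 225 and at 191 and 152 against 18.4 and 39.6.

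The secretory machinery was mostly shared with the progenitors as scaled here. In both libraries 3 of 32 folding genes, 3 of 42 transport genes and 3 of 30 glycosylation genes were at least 2-fold higher, with median log2 of 0.62, 0.53 and 0.72. Under TMM scaling these counts were 16, 13 and 15 and under DESeq2 scaling 16, 16 and 15, so whether these lists counted as called depended on the scaling, while 0 genes of these lists were lower under any of the 3 scalings. Without the cells of raised doublet score the counts were 0, 2 and 2. Pdia5 (log2 of 1.18 and 1.07), Ern2 (1.30 and 1.02), Kdelr3 (1.66 and 1.51), Chst4 (1.72 and 2.14) and Galnt12 (1.30 and 1.25) were among those higher as scaled here with all cells. Without the cells of raised doublet score Kdelr3 (1.17 and 1.52) and Chst4 (1.30 and 1.85) were higher, and Pdia5 (0.36 and 0.92), Ern2 (0.73 and 0.90) and Galnt12 (0.47 and 1.12) were not. Of the 293 genes higher than in the other types, 97 were also higher than in progenitors and 196 were not.

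Cell cycle genes were the main group below the progenitors, with 19 of 25 lower, 0 higher and a median log2 of -2.24 (17 lower with either TMM or DESeq2). Top2a, which untangles replicated DNA, stood at 6.08 and 13.4 CPM against 297 and 244. Ube2c, needed to leave mitosis, stood at 20.6 and 33.5 CPM against 420.5 and 271, Cdk1, the mitotic kinase, at 9.52 and 8.05 against 161 and 103 and Mki67 at 19.8 and 26.4 against 243 and 188. Prc1, Nusap1, Pbk and Smc2 of mitosis, Rrm1 of nucleotide synthesis, the chromatin remodeller Hells and the tubulin gene Tuba1b were the other genes lowest against progenitors, with log2 between -4.23 and -2.76. The cyclin gene Ccnd2 was kept at 434 and 555 CPM in goblet cells and 508 and 600.5 in progenitors. Cdkn1c, an inhibitor of cell division, was at 0.264 and 3.13 CPM, since it was an EEC gene here with 549 and 622 CPM. Ccnd2 was named after its values were seen.

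Immediate early genes, which many stimuli induce within minutes, were higher than in progenitors for 6 of 10 genes and than in the other types for 5 of 10, with median log2 of 1.43 and 1.40. With TMM or DESeq2 scaling all 10 were higher than in progenitors. Fos stood at 725 and 458 CPM against 237 and 172 in progenitors, and Atf3 at 225 and 92.5 against 56.8 and 26.4. Jun stood at 601 and 265 CPM and Dusp1, a phosphatase that ends MAP kinase signals, at 162 and 76.9. EEC had the higher level of Jun in replicate 2 and of Egr1 and Junb in both. Of the 10 genes, 6 were at least 2-fold higher in replicate 1, Fosb at 250.4 and 91.2 CPM and Egr1 at 274 and 123 among them, and 0 in replicate 2. Over all genes tested these shares were 2.61% and 2.13%, and mouse and library cannot be told apart.

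**Figure D3:**
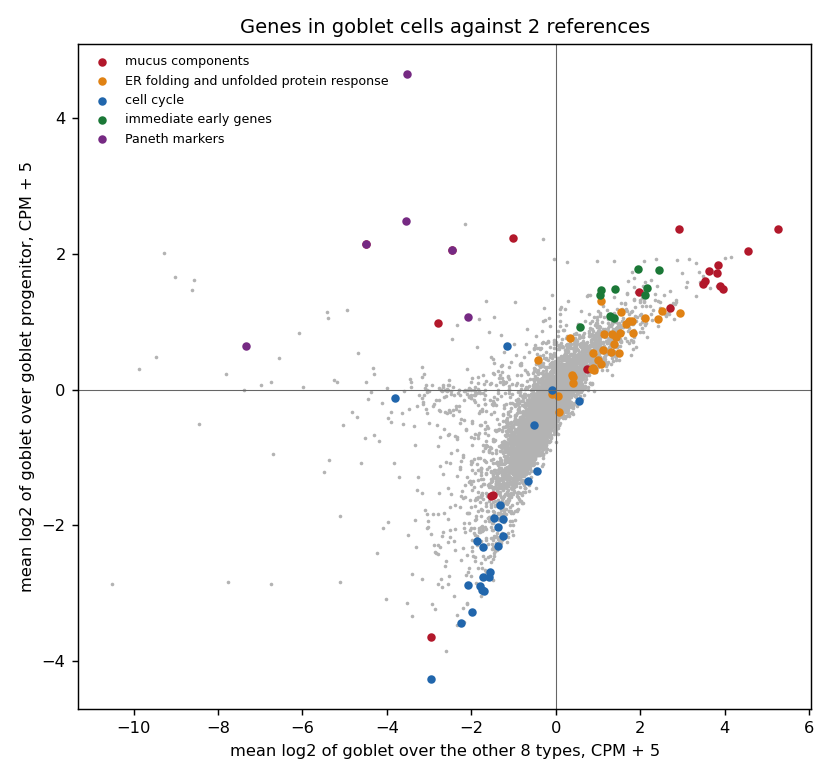
Each of the 7499 genes by its mean log2 in goblet cells over the other 8 types (x axis) and over goblet progenitors (y axis), with 5 lists in colour. Of the mucus genes 13 of 20 and of the folding genes 28 of 32 lie above 0 on both axes, 23 of 25 cell cycle genes lie below 0 on both, and all 6 Paneth markers lie left of 0 and above 0 on the y axis.

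In its profile as a whole, the goblet class was most like its progenitor. The Spearman correlation of levels across the 7499 genes was 0.84 and 0.86 with goblet progenitors, 0.80 and 0.79 with Paneth cells, 0.79 and 0.78 with secretory progenitors and between 0.66 and 0.75 with the other 5 types. These values run across genes within a library, and genes are not independent. They include the 115 and 40 progenitors with a doublet score of 0.1 or more. The sums also differed in depth, in replicate 1 from 413531 UMIs in tuft cells to 19366535 in enterocytes. The part of either in these correlations was not tested. By the share of genes at least 2-fold apart in both libraries the order differed. It was 9.07% for goblet progenitors, 10.3% for secretory progenitors and 16.7 to 19.9% for EEC, tuft, stem, enterocyte and TA cells, but 77.5% for Paneth cells, in which 10 genes took 82.6% and 81.9% of the UMIs.

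Goblet cells of a mouse differed widely in how much of their RNA was mucus RNA. Each cell was thinned to 5000 UMIs, which kept 276 and 138 cells. The UMIs of 7 mucus genes together (Zg16, Tff3, Fcgbp, Muc2, Clca1, Agr2 and Spink4) ranged from 178 over a median of 930.5 to 3293 in replicate 1, and from 199 over 911 to 2433 in replicate 2. In the most extreme cells these genes thus took 65.9% and 48.7% of all UMIs. Zg16 ranged from 0 UMIs to 2462 and 1443, with a coefficient of variation (SD over mean) of 1.01 in both libraries, and Clca1 from 0 to 129 and 44 with 1.43 and 1.14. Agr2 varied least of the 7, with a coefficient of 0.35 and 0.38 and medians of 158 and 133 UMIs per cell. Tff3 had coefficients of 0.47 and 0.46 and Muc2 of 0.74 and 0.85.

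The mucus genes went together from cell to cell in both mice. Among 1911 genes detected in at least 20% of cells of each library, those with the highest Spearman correlation with Zg16 were Tff3 (0.87 and 0.83), Muc2 (0.78 and 0.79), Fcgbp (0.79 and 0.77), Lypd8 (0.81 and 0.745) and Clca1 (0.80 and 0.68), followed by Ifi27l2b (0.72 and 0.64) and S100a6 (0.54 and 0.53). Spink4 was more loosely tied (0.20 and 0.36), and Agr2 hardly at all (-0.13 and -0.01). Spdef and Atoh1, which set the fate, had -0.29 and -0.14 and -0.24 and 0.05. Over all 1911 genes 20 were at 0.3 or more in both libraries and 144 at -0.3 or less. These are descriptions over the 276 and 138 cells of 1 library each, and the genes share a fixed total of 5000 UMIs in each cell, so a gene that takes much of it lowers the others. The genes in this and the next paragraphs were ranked by these correlations after the values were seen.

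Genes at the low end of the Zg16 correlation included Rpl14, of the ribosome, at -0.76 and -0.70, the chaperone Hsp90ab1 at -0.79 and -0.62 and the prolyl isomerase Ppia at -0.66 and -0.67. The summed UMIs of 93 ribosomal protein genes had a correlation with Zg16 of -0.89 and -0.77. Mucus RNA was then taken out of the shared total. This cannot measure the part that the total produces, since the remaining UMIs again share a fixed total and fewer are drawn. With Zg16 taken out and 3000 of the other UMIs drawn per cell, the correlation was -0.79 and -0.66, and with all 7 mucus genes taken out it was -0.66 and -0.47. The ribosomal share of the remaining UMIs was thus still lower in cells with more Zg16 in both libraries. The cause was not tested.

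Agr2 instead went with the ER. Its highest correlations were with Manf (0.51 and 0.46), Calr (0.44 and 0.57), Ssr2 (0.36 and 0.53), Hspa5 (0.36 and 0.43), Pdia3 (0.36 and 0.41), Sec61b (0.35 and 0.42) and Pdia6 (0.38 and 0.33), and with the galectins Lgals4 (0.40 and 0.50) and Lgals2 (0.39 and 0.45). Hspa5 had -0.02 and 0.04 with Zg16. Another set of genes went with Fos, which had 0.63 and 0.41 with Fosb, 0.58 and 0.44 with Ier2, 0.57 and 0.42 with Jun, 0.50 and 0.48 with Junb and 0.65 and 0.37 with Atf3. With Zg16, Fos had 0.37 and 0.05. The immediate early genes summed to medians of 15 and 9 UMIs per cell, with up to 73 and 33.

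**Figure D4:**
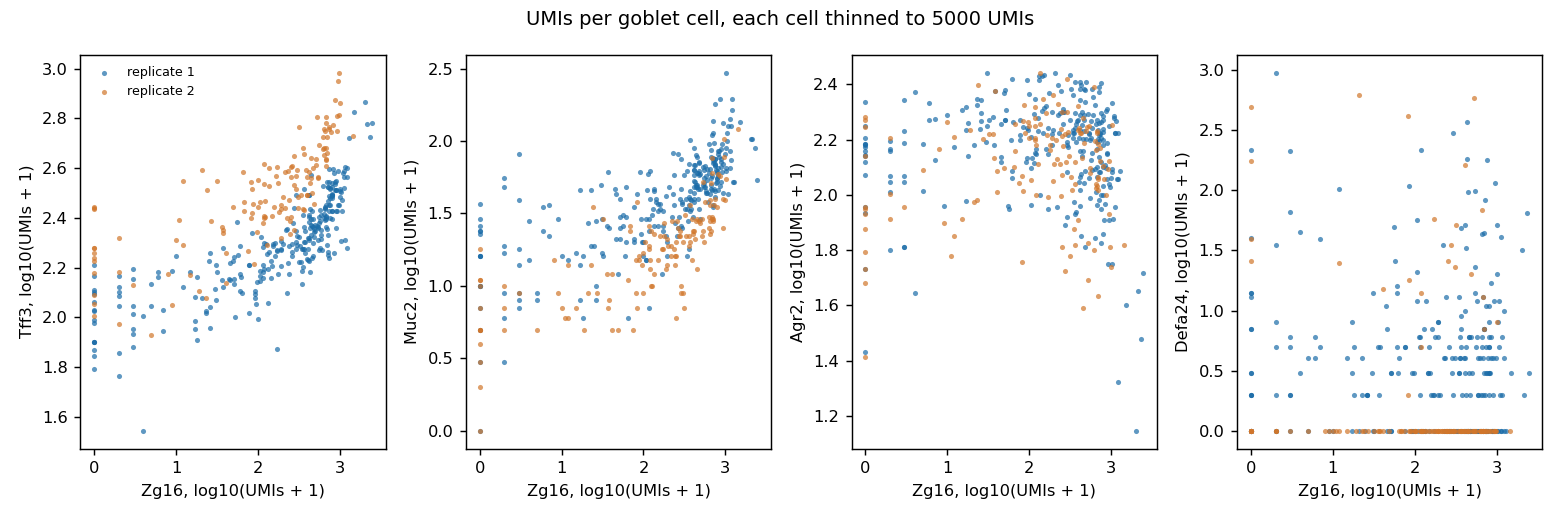
Goblet cells thinned to 5000 UMIs, with log10 of UMIs + 1 of Zg16 on each x axis and of Tff3, Muc2, Agr2 and Defa24 on the y axes (blue for replicate 1, orange for replicate 2, a point for each cell). Tff3 and Muc2 climb with Zg16, Agr2 stays within a narrow band over most of the Zg16 range, and Defa24 is near 0 in most cells and high in a few at any Zg16 level.

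RNA of Paneth genes was concentrated in few goblet cells. The 6 Paneth markers had medians of 5 and 1 UMIs per cell at 5000 UMIs, but maxima of 966 and 709, and the top 5% of cells held 54.7% and 70.2% of these UMIs. Goblet cells with at least 1% of their UMIs in Paneth markers numbered 31 (11.2%) and 14 (10.1%). Their mucus share was not lower, since the 7 mucus genes took medians of 22.3% and 23.4% of their UMIs, against 18.6% and 18.2% in the other goblet cells. Their total UMIs were similar (medians of 13469 and 14821, against 13718.5 and 16059), and their median doublet scores were higher (0.0575 and 0.0821, against 0.0188 and 0.0106). A UMI of Defa24 was seen in 67.8% of goblet cells of replicate 1 and 17.4% of replicate 2, against 0.86% and 0% of enterocytes at the same depth. Without the goblet cells at or above 1%, 297 genes were higher and 709 lower than in the other types, near the counts with all cells. The part that doublets have in this RNA was not tested.

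Between the mice, 196 of 7499 genes (2.61%) were at least 2-fold higher in the goblet cells of replicate 1 and 160 (2.13%) in those of replicate 2. With 1 library a mouse these differences have no replicate check, and mouse and library cannot be told apart. Many of them were seen in other types too. Of the 196 genes, 27 had the same 2-fold difference in 7 or 8 of the other types, 57 in 4 to 6, 92 in 1 to 3 and 20 in none. Of the 160, these numbers were 70, 34, 28 and 28.

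The largest differences toward replicate 2 were mostly of this shared kind. Rps18, a ribosomal protein gene, stood at 66.6 and 4365 CPM, and Rps28 at 175 and 1553, Rps26 at 297 and 1668 and Rpl15 at 65.0 and 409, with the same direction in 8 of 8 other types each. Wdr89, the copper chaperone Cox17, and Rps27rt and Rpl6l, near copies of ribosomal protein genes whose reads may be split, went the same way, also in 8 of 8. Sft2d1 stood at 4.49 and 57.2 CPM and Defa17 at 28.0 and 239, with the same direction in 6 of 8 each. Higher in replicate 1 were Hopx at 101 and 13.9 CPM, Lars2 at 82.5 and 11.2 and mt-Nd4l at 225 and 62.6, again in 8 of 8 other types. B4galnt2, which adds a terminal sugar in the intestine and varies between mouse strains, stood at 51.3 and 8.94 CPM, with the same direction in 6 of 8. Hmgcs1, an enzyme of cholesterol synthesis, stood at 216 and 56.3 CPM, with the same direction in 4 of 8. The chromatin gene Chd2 stood at 55.0 and 13.9 CPM (2 of 8), Brd1 at 56.3 and 10.3 (7 of 8), Prrc2c at 160.5 and 50.1 (6 of 8) and Reg3b at 499.7 and 142 (6 of 8).

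Of the 293 genes higher than in the other types, 14 (4.78%) were at least 2-fold higher in replicate 1, Muc2 and Ramp1 among them, and 3 (1.02%) in replicate 2. Over all genes tested these shares were 2.61% and 2.13%. Guca2a was 1.79-fold and Tff3 1.58-fold higher in replicate 2, below the 2-fold line.

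**Figure D5:**
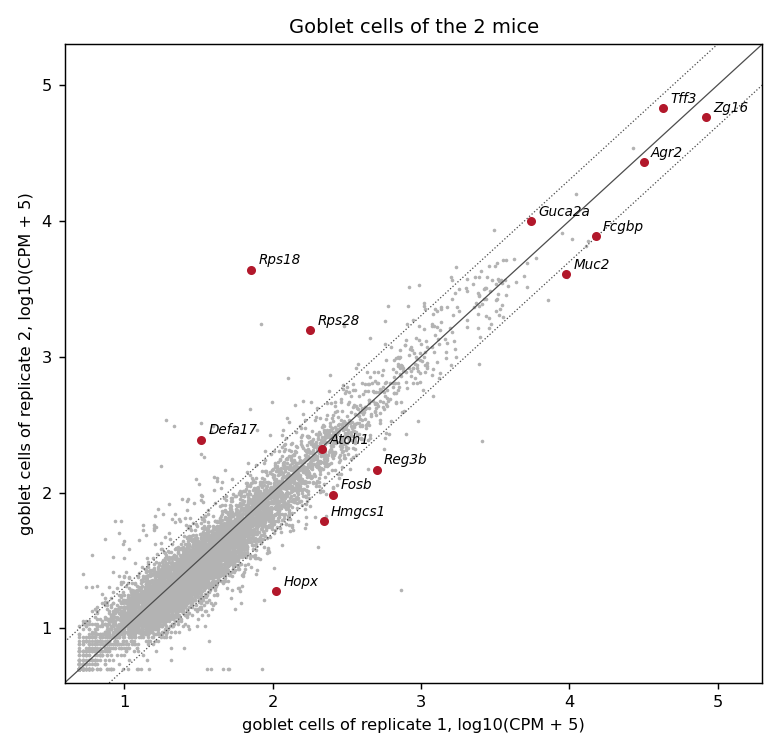
Levels in goblet cells of replicate 1 and replicate 2 for each of the 7499 genes, as log10 of CPM + 5, with the solid line at equal levels and dotted lines at 2-fold. Rps18 and Rps28 lie furthest above the lines among the genes marked, Hopx and Hmgcs1 below them, and Agr2, Atoh1 and Zg16 lie between.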

How the data were processed

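Jejunal crypts of 2 male 375KO mice were dissociated with Dispase I and profiled with a 10x Genomics 3′ kit of chemistry version 2 per the labels. The authors aligned reads to mm10 and counted UMIs with Cell Ranger (3.0.1), giving the deposited whole-number counts per gene and barcode used here. The methods also name SoupX for ambient RNA and scDblFinder for doublets, with integration and clustering in Seurat (3.2.1 per the submitters' processing notes), and clusters were named by how strongly they scored for sets of marker genes. The deposited cell table gives the authors' cell type and mitochondrial percent, and a further deposited table the doublet score. In the kept cells the fewest genes were 1507 and the highest mitochondrial share was 24.9%. Doublets were removed by the authors, and no caller was run here. Beyond the 2 libraries, the deposited tables contain 2937 columns of cells and 6059 rows of doublet calls that belong to another series, and none was used.

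Cells were matched by barcode to the named matrices (27998 genes), and their UMIs were summed per library and type. Sums were scaled to CPM and 5 CPM were added before folds were taken. Genes with a mean of at least 10 CPM over the 9 types were compared, and a gene was called at 2-fold or more in the same direction in both libraries. The class was drawn from the same cells' expression, so no p-value is given. Intervals are exact binomial at 95% and cover counting error only. For cell-to-cell values each cell was thinned to 5000 UMIs with a fixed seed. Scripts were tested on simulated data. The members and gene lists were chosen with earlier results of these data known. Named genes were up to 8 per list with the largest absolute mean log2 at 50 CPM or more, 15 higher and 10 lower outside the lists, 10 per direction against progenitors and between mice, the 10 with the most UMIs, and the markers, transcription factors and receptors. Predicted models and pseudogenes were counted and not described. Other scalings, added CPM, filters, cell sets and single libraries were tried as alternatives. Python 3.11.15, numpy 2.4.6, pandas 2.3.3, scipy 1.17.1, matplotlib 3.10.9, R 4.3.3, edgeR 4.0.16 (TMM factors) and DESeq2 1.42.0 (size factors) were used. Promoters and the hairpin came from RefSeq on GRCm38.p6.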

Additional observations from a re-analysis of the deposited data

How the results depend on the processing

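Each count rests on 2 libraries. The number of genes higher than in the other types was 293 and ranged from 327 to 385 with 1 library alone, and it stayed within 1.5 times of 293 under every alternative tried. The other counts moved. Genes lower than in the other types numbered 728, and 458 with TMM, 480.0 with DESeq2, 269 with 20 CPM added and 884 to 1122 without either replicate. Genes higher than in progenitors numbered 122, and 325 with TMM, 345 with DESeq2, 77 with 20 CPM added and 176 to 224 without either replicate. Genes lower than in progenitors numbered 558, and 232 with TMM, 220.0 with DESeq2, 880.0 with 1 CPM added, 208 with 20 CPM and 884 to 1089 without either replicate. Genes higher in replicate 1 numbered 196, and 398 with 1 CPM added, 63 with 20 CPM and 427 after thinning to 5000 UMIs. Those higher in replicate 2 numbered 160.0, and 314 and 94 with 1 and 20 CPM added. Genes highest in goblet cells numbered 388, and 468 to 583 in 1 library. The goblet share of epithelial cells, 12.7% as the mean of the mice, was 20.03% among stricter cells and 11.7 to 13.6% without either replicate. With fewer libraries a call needs 1 library to pass in place of 2, and with more CPM added low genes cannot reach 2-fold. For the shifts with the scaling, the medians in the report give the size. The cause of the shift in share was not tested.

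With Paneth cells left out of the other types, genes of Paneth cells turned from lower to higher in mean log2, to 3.88 for Itln1, 0.16 for Mptx2, 3.57 for Lyz1, 0.41 for Defa21, 0.30 for Defa22, 0.79 for Defa26, 1.77 for Defa17, 4.14 for Defa24, 2.36 for Ang4 and 2.83 for Clps. Among stricter cells Itln1 and Clps also turned higher than the other types, to 1.03 and 0.052. Of the other values of named genes, 1485 moved by no more than the spread between the libraries and 635 by more, with the same sign where called. Leaving out a library or the gene filter could not move a value past that spread, and each of these settings supplied 164 of the 1485. Of 164 values per setting, 94 moved by more with TMM, 91 with DESeq2, 114 with the other types pooled and 95 with 20 CPM added. The remaining settings moved between 14 and 65. Without the goblet cells rich in Paneth RNA, 1 of 6 Paneth markers was higher than in progenitors, against 3 with them, and 11 mucus genes against 14. Of 6 cell correlations recomputed, 5 moved by no more than the SD between the libraries after thinning to 3000 UMIs. The number was 5 without the goblet cells rich in Paneth RNA and 3 with Zg16 taken out of the total. Leaving out a library could not move a correlation past that SD, so it was no check. The alternatives that left out goblet cells by Paneth RNA or doublet score, the thinning to 3000 UMIs and the removal of Zg16 from the totals were chosen after seeing the data. No paired analysis was possible because the series holds 1 group and no test between groups was made.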
